A study of Mus musculus with 6 samples.

Results

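Tumor suppressor genes and genes of the p53 response were examined in tumors of mG7080 cells. The 9 genes Trp53, Cdkn1a, Mdm2, Ccng1, Bax, Cdkn2a, Rb1, Nf1 and Sesn2 were taken by symbol from the 16729 genes of the deposited RNA-seq table, and all 9 were found there. mG7080 is a gliomasphere culture of murine glioblastoma (GBM) cells, grown from spontaneous tumors of mice with engineered deletions that include p53 and Nf1. These cells were injected into the brains of young adult female C57BL/6 mice that were either wild-type (WT) or knockout (KO) for Esm1, the gene of the secreted endothelial proteoglycan Endocan, and no other treatment is given for the hosts. All 6 tumors therefore carry the lesions of mG7080, while the injected cells themselves were not altered at Esm1. RNA was taken from whole tumor tissue of 3 WT hosts (WT 1, WT 2 and WT 3) and 3 KO hosts (KO 1, KO 2 and KO 3), which mixes transcripts of the injected cells with those of the host brain. The comparison asks how the host genotype relates to the level of these genes in the tumor. The exons of Trp53 and Nf1 that were removed in mG7080 are not given in the sources used here, and a read count over the whole gene cannot check the deletion.

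Trp53 encodes the transcription factor p53, which is held low by the ubiquitin ligase Mdm2 and released from it after DNA damage or oncogene activity. Cdkn2a encodes p19Arf, which binds Mdm2, and from another first exon p16Ink4a, which inhibits the cyclin D kinases that inactivate the retinoblastoma protein, the product of Rb1. Among p53 targets, Cdkn1a encodes the cyclin-dependent kinase inhibitor p21, Ccng1 encodes cyclin G1, Bax permeabilizes mitochondria in apoptosis, Sesn2 restrains mTORC1 signaling in stress, and Mdm2 itself closes a feedback loop. Nf1 encodes neurofibromin, a GTPase activating protein that turns RAS off. The p53, RB and RAS pathways are those most often altered in glioblastoma.

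Promoters are shown for Trp53, Cdkn2a and Sesn2, which differed most between libraries. They are also shown for Cdkn1a and Mdm2, the p53 targets that differed least under the scaling used below. With libraries scaled to their total alone, Ccng1 differed less than Cdkn1a. RefSeq promoters on GRCm38.p6 matched 8 of the 9 genes, with Rb1 as the gene without a match. In the 250 bases before the start, both strands were searched for the p53 decamer (the unit of the p53 response element), for the E2F elements TTTCCCGC and TTTGGCGC and for the E-box CACGTG. Capitals mark the matches. The whole 250 bases were searched, whereas the printed runs leave out stretches that overlap an annotated exon, also one of a neighboring gene, and are in part shorter. Each run is 5′ to 3′ on the strand of its gene.
Trp53, chr11:69580256-69580358, plus strand: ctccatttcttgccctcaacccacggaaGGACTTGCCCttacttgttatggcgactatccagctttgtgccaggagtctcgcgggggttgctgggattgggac
Cdkn2a, upstream start, that of p19Arf, chr4:89294654-89294869, minus strand: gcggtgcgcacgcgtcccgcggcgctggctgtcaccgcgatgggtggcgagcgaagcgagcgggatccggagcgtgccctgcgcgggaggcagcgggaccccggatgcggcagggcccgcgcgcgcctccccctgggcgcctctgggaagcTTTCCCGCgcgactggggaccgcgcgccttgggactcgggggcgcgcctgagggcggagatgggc
Sesn2, chr4:132510502-132510706, minus strand: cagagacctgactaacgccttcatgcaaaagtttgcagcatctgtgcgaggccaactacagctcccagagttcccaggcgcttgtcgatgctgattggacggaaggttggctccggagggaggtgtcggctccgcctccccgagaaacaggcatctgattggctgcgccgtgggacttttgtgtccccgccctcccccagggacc
Cdkn1a, first start, chr17:29090729-29090975, plus strand: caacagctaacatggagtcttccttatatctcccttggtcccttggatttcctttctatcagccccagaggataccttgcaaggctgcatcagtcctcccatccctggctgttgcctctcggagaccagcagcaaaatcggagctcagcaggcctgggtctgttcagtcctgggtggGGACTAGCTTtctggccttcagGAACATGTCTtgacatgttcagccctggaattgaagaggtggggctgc
Mdm2, chr10:117710759-117711008, minus strand: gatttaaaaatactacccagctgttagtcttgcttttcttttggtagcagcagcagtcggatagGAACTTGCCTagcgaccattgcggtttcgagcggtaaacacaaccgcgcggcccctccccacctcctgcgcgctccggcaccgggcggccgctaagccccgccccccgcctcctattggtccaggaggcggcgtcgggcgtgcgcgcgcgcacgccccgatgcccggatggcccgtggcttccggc

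The p53 decamer was found in 5 genes, namely Trp53, Cdkn1a, Mdm2, Ccng1 and Bax, and in 7.13% of 32851 RefSeq promoters of the same length. In Trp53 it lies 75 to 66 bases before the start and in Mdm2 186 to 177 bases before it. Cdkn1a holds a pair of decamers at 73 to 64 and 51 to 42 bases before its first start. Such a pair with 0 to 13 bases between its members was present in 0.0639% of the promoters. TTTCCCGC was found once, 99 to 92 bases before the Cdkn2a start shown above, and in 0.895% of the promoters. TTTGGCGC, held by 0.417% of the promoters, had no match in the 8 genes, and CACGTG, held by 6.02%, matched in Bax at 9 to 4 bases before the start. In Sesn2 and Nf1, at the second start of Cdkn1a and at the downstream start of Cdkn2a none of the searched letters were found. These matches describe the letters of the windows and are not binding sites.

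Libraries held 17632070 to 22241832 reads on genes, and 3 counts, the level that a count of 0 allows, correspond to 0.134 to 0.171 CPM (counts scaled to library size and TMM factors). The library labelled KO 2 stood apart from KO 1 and KO 3. On the first principal component (82.8% of the variance) KO 1 and KO 3 lay at -89.8 and -123, whereas KO 2 (35.2) lay between WT 1 (19.2) and WT 3 (69.7). Esm1 itself had 25, 21 and 82 reads in WT 1 to WT 3, and 1, 24 and 4 reads in KO 1, KO 2 and KO 3. The Esm1 count of the library labelled KO 2 was thus within the range of the WT libraries. In CPM it lay at 1.068, just below WT 2 (1.085), the lowest WT library. The injected cells were not altered at Esm1, so these reads do not settle the genotype of the host. Esm1 had a log2 fold change (KO minus WT) of -2.20 (SE 1.01, adjusted p = 0.192, edgeR) over all 6 libraries. Each of the 9 genes is therefore given over all 6 libraries and again over WT 1, WT 2, KO 1 and KO 3, the 4 libraries in the RNA-seq result table that accompanies the study. In those 4, Esm1 was lower in KO by 3.02 on the log2 scale (log2 fold change -3.02, SE 0.64, adjusted p = 0.0425), a call that was lost when WT 2 (-3.08, adjusted p = 0.0685), KO 1 (-2.41, adjusted p = 0.130) or KO 3 (-4.17, adjusted p = 0.118) was left out.

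Cell markers moved with the same libraries. The summed level of 12 cycling cell genes was 1360 to 2431 CPM in the WT libraries, 168 CPM in KO 1, 1517 CPM in KO 2 and 77.1 CPM in KO 3. Summed glioma and progenitor markers (7 genes) were at 1266 to 1742 CPM in WT and at 479, 1508 and 329 CPM in KO 1, KO 2 and KO 3. In the opposite direction, 16 neuronal genes summed to 3106 to 7813 CPM in WT and to 16340, 6697 and 19460 CPM in the KO libraries in the same order. Markers of myelinating oligodendrocytes (8 genes, 1321 to 3347 CPM in WT, 3212 to 7489 CPM in KO) and of astrocytes (7 genes, 2815 to 3603 CPM in WT, 3901 to 5650 CPM in KO) also had higher sums in KO 1 and KO 3 than in each WT library. Single markers of these lists parted ways. Of the glioma and progenitor markers, only Prom1 had a positive log2 fold change. It was 0.37 over all 6 libraries (adjusted p = 0.335) and 0.67 over WT 1, WT 2, KO 1 and KO 3 (adjusted p = 0.131). The astrocyte sum was carried by the glutamate transporter gene Slc1a2 (552 to 1380 CPM in WT, 4140 CPM in KO 1 and 3760 CPM in KO 3), whereas the astrocyte filament gene Gfap was lower over WT 1, WT 2, KO 1 and KO 3 (1090 to 1140 CPM in WT, 247 CPM in KO 1 and 224 CPM in KO 3, log2 fold change -2.26, adjusted p = 0.0343), and in KO 3 the oligodendrocyte genes Cnp, Mobp and Cldn11 lay below WT 1. Microglia and macrophage markers (8 genes) spanned 442 to 500 CPM in WT and 384 to 602 CPM in KO in sum, while Ptprc, Cd68 and Aif1 among them were lower over the 4 libraries (log2 fold changes -2.60, -1.80 and -1.56, adjusted p = 0.0343 each) and P2ry12 was not (0.94, adjusted p = 0.123). Endothelial markers (8 genes) spanned 207 to 253 CPM in WT and 186 to 250 CPM in KO in sum, and 0 of the 8 passed in either comparison. Among them, Podxl was lower in every KO library (36.8 to 51.1 CPM) than in every WT library (59.7 to 65.7 CPM). Tek was higher in every KO library (12.3 to 19.1 CPM) than in every WT library (10.4 to 11.4 CPM). Such orders were shown by 14.6% and 13.2% of all genes. No marker of these 7 lists was at 0 in any library. The part of cell composition in the results below was not tested, and in whole tumor RNA fewer cells of a type and less RNA per cell cannot be told apart.

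**Figure D1:**
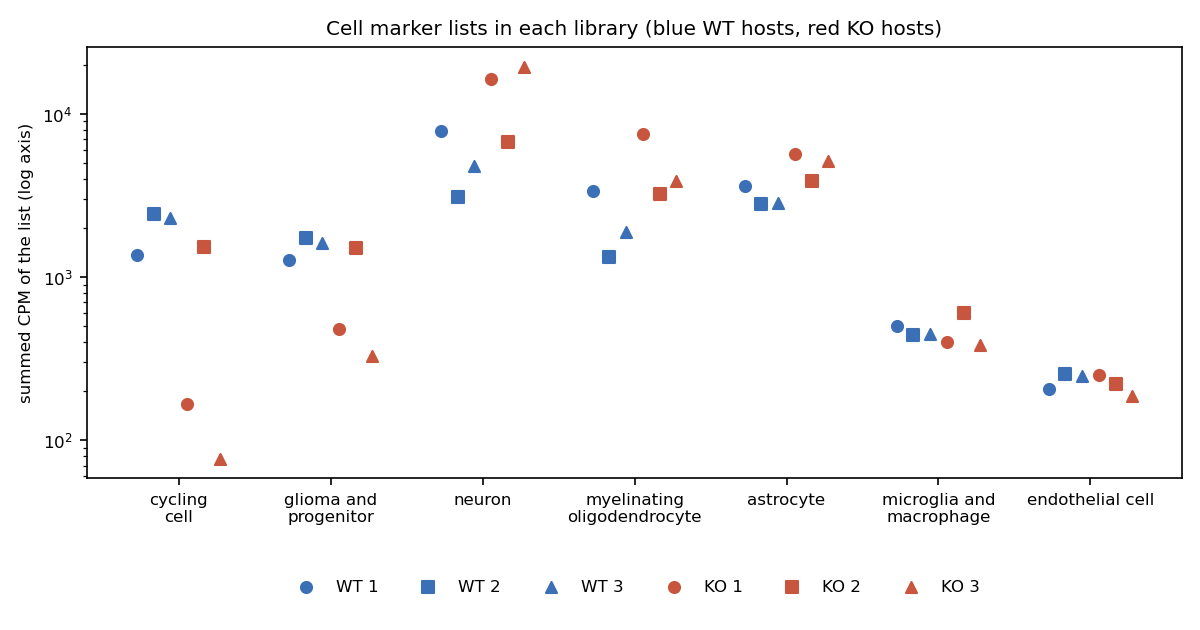
Summed CPM of each cell marker list (y axis, log scale) in the 6 libraries, with WT hosts in blue and KO hosts in red. KO 1 and KO 3 lie apart from the other 4 libraries for cycling cell genes (168 and 77.1 CPM against 1360 to 2431 CPM) and for neuronal genes, while KO 2 lies near the WT libraries.

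To compare the genes with each other, the FPKM of the deposited table were read, which are reads scaled to library size and to gene length. In the WT libraries Cdkn2a had the highest mean FPKM (96.8 ± 26.8, SD, n = 3), followed by Bax (76.0 ± 20.7) and Trp53 (49.3 ± 10.6). Their ranges over the WT libraries overlapped from one gene to the next, although within each WT library the 3 genes kept this order. Trp53 in turn lay above Ccng1 (20.9 ± 3.69 FPKM) in each WT library, while Ccng1 and Mdm2 (20.4 ± 1.32 FPKM) did not differ beyond their spread. Mdm2 lay above Rb1 (12.8 ± 0.988 FPKM). The last 4 genes, Rb1, Sesn2 (12.5 ± 3.76 FPKM), Nf1 (12.1 ± 0.806 FPKM) and Cdkn1a (11.3 ± 1.42 FPKM), overlapped with their neighbors in this order. In KO 2 the first 3 places were held by the same genes at 83.3, 68.3 and 41.4 FPKM. In KO 1 and KO 3, Bax was first (35.04 and 30.01 FPKM), followed by Ccng1 (22.1 and 22.6 FPKM) and Mdm2 (17.6 and 15.99 FPKM), and Trp53 (14.4 and 10.4 FPKM) came after them, in KO 3 also after Nf1 (12.9 FPKM). Cdkn2a was at 5.26 FPKM in KO 1 and at 0.159 FPKM in KO 3, where Sesn2 (4.08 FPKM) was next above it.

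**Figure D2:**
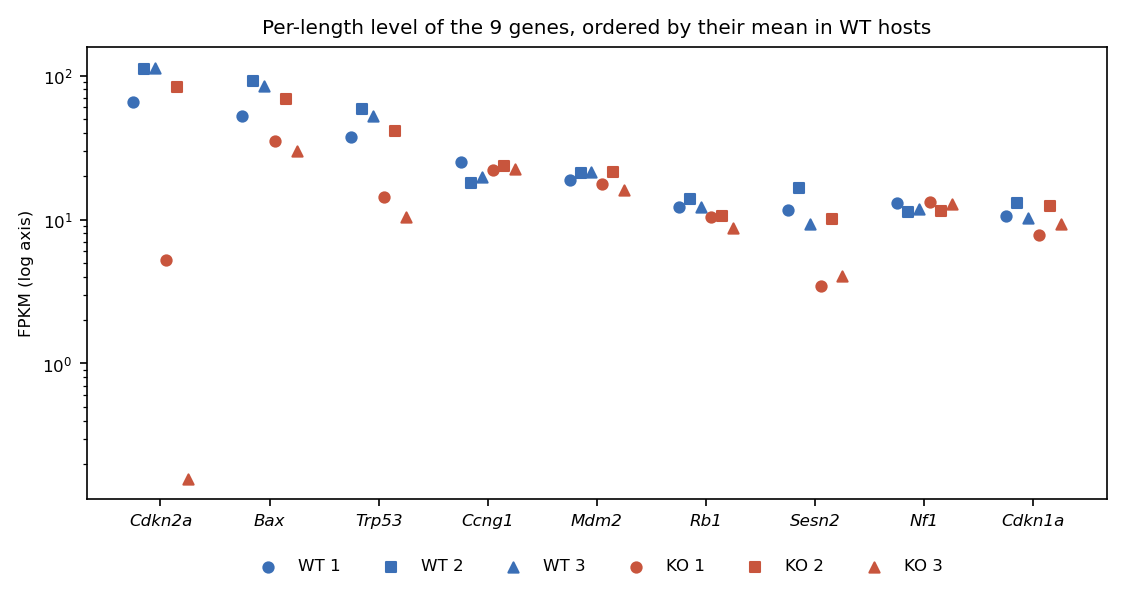
FPKM of the 9 genes (y axis, log scale) in each library, ordered from left to right by the mean over the 3 WT libraries (blue; KO libraries red). Cdkn2a leads in WT and in KO 2 (83.3 FPKM) and is lowest in KO 3 (0.159 FPKM), whereas Ccng1, Mdm2, Nf1 and Cdkn1a lie close together in all 6 libraries.

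Trp53 mRNA was lower in KO 1 and KO 3 than in the other libraries. It was at 64.8, 93.8 and 86.4 CPM in WT 1, WT 2 and WT 3 (81.7 ± 15.1, SD, n = 3) and at 28.01, 69.5 and 21.3 CPM in KO 1, KO 2 and KO 3 (39.6 ± 26.1). KO 2 lay inside the range of the WT libraries, as it did for 54.6% of the genes tested, so the groups overlapped. The log2 fold change over all 6 libraries was -1.06 (SE 0.46, 95% interval -2.19 to 0.064, adjusted p = 0.188), which did not pass the test. Over WT 1, WT 2, KO 1 and KO 3, Trp53 fell by 1.70 on the log2 scale (SE 0.27, 95% interval -2.39 to -1.01, adjusted p = 0.0343), a 3.21-fold lower mean CPM (24.7 against 79.3). Without KO 3 this call was lost (log2 fold change -1.50, adjusted p = 0.126).

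Mdm2, the negative regulator of p53 and its transcriptional target, showed the least variation of the 9 genes in CPM with TMM factors. Its level was 57.1, 59.4 and 61.7 CPM in the WT libraries and 59.7, 62.7 and 57.4 CPM in KO 1, KO 2 and KO 3. All 6 values lay within a ratio of 1.10, and 0.431% of 15299 genes with a mean of at least 1 CPM had a smaller ratio between their highest and lowest library. With libraries scaled to their total alone, this ratio was 1.34 for Mdm2 and 1.16 for Nf1, which then varied least. The log2 fold change was -0.005 (SE 0.11, 95% interval -0.28 to 0.27, adjusted p = 0.976) over all 6 libraries and -0.004 (95% interval -0.41 to 0.40, adjusted p = 0.986) over the 4.

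Cdkn2a had the widest range. It was counted 1147, 1664 and 1830 times in WT 1, WT 2 and WT 3, and 86, 1508 and 3 times in KO 1, KO 2 and KO 3. In CPM these are 54.6, 86.0 and 90.3 in WT and 4.91, 67.1 and 0.156 in KO. The value of KO 3 equals the floor of 3 counts, with an exact Poisson interval of 0.0322 to 0.456 CPM, and that of KO 1 has an interval of 3.92 to 6.06 CPM. KO 2 lay between WT 1 and WT 2, whereas KO 1 and KO 3 lay far below every WT library and also far from each other. The log2 fold change over all 6 libraries was -1.70 (SE 1.51, 95% interval -5.39 to 1.99, adjusted p = 0.417). Over WT 1, WT 2, KO 1 and KO 3 the difference was larger than for any other of the 9 genes (log2 fold change -4.82, SE 1.18, 95% interval -7.85 to -1.80) and yet missed the threshold (adjusted p = 0.0518), with a mean of 70.3 CPM in WT and 2.53 CPM in KO. It passed with upper quartile factors (adjusted p = 0.0493), limma-voom (0.0423), DESeq2 (0.0238) and the exact test (0.00555), and not without WT 2 (log2 fold change -4.46, adjusted p = 0.0596). The size rested on single libraries, with -8.75 (adjusted p = 0.0037) without KO 1, where 3 reads remain in KO, and -3.84 (adjusted p = 0.0391) without KO 3. Over all 6 libraries limma-voom gave -4.18 (adjusted p = 0.159). The counts add the reads of p19Arf and p16Ink4a, whose starts are both annotated at this locus, and cannot tell the products apart.

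**Figure D3:**
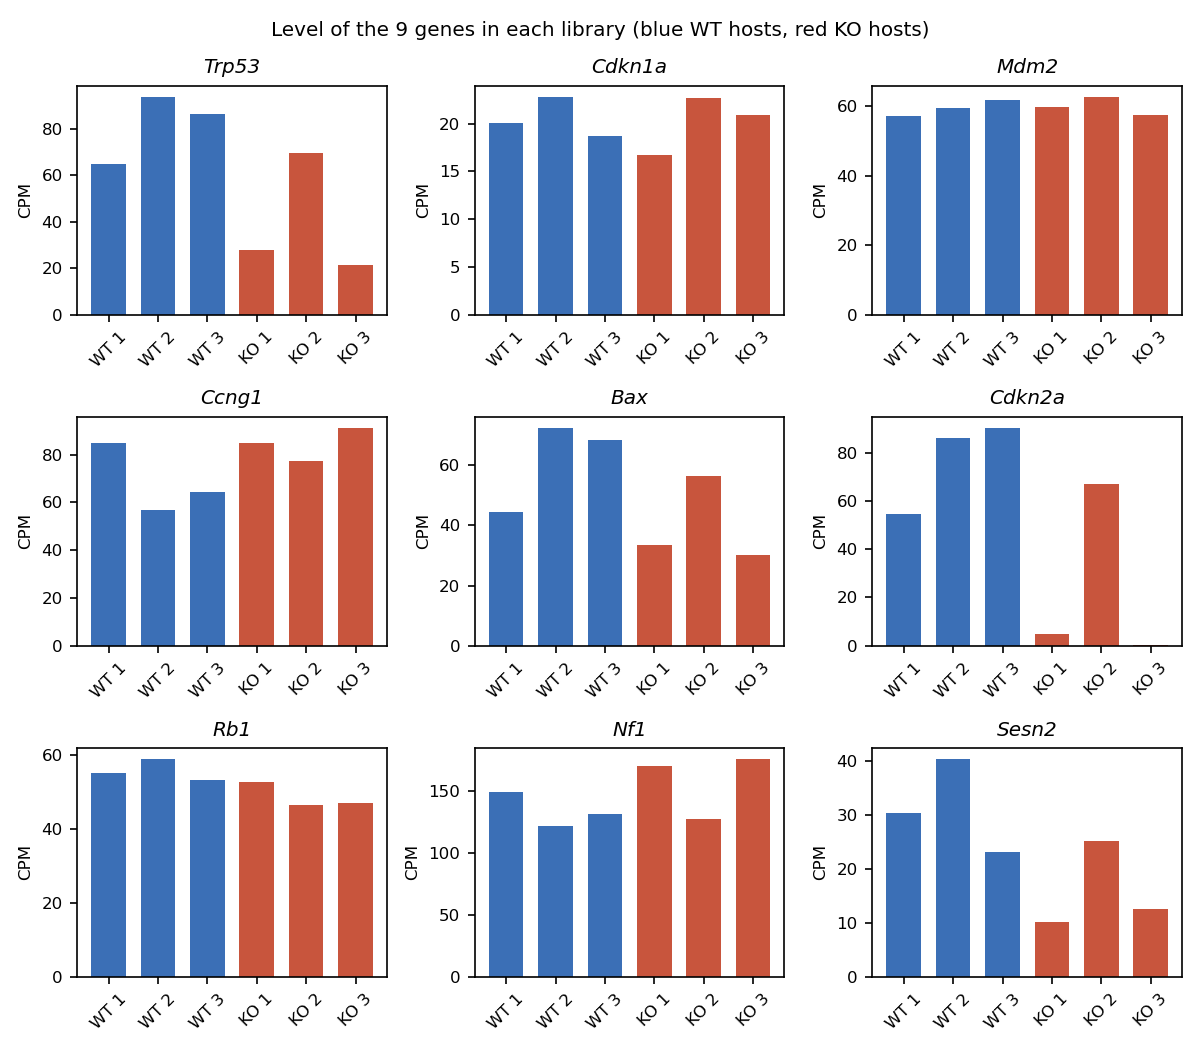
CPM of each of the 9 genes (y axes start at 0) in the 3 WT libraries (blue) and the 3 KO libraries (red), with 1 bar per library. Trp53, Bax, Cdkn2a and Sesn2 are low in KO 1 and KO 3 and not in KO 2, while the highest library of Cdkn1a and Mdm2 is 1.37 and 1.10 times the lowest.

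Of the p53 targets, Cdkn1a, the gene of p21, was at 20.1, 22.8 and 18.7 CPM in WT 1, WT 2 and WT 3 and at 16.7, 22.7 and 20.9 CPM in KO 1, KO 2 and KO 3. The groups overlapped, KO 1 being the lowest library and WT 2 the highest. Its log2 fold change was -0.047 (SE 0.18, 95% interval -0.50 to 0.40, adjusted p = 0.854) over all 6 libraries and -0.20 (95% interval -0.78 to 0.38, adjusted p = 0.505) over the 4.

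Ccng1, which encodes cyclin G1, was at 85.0, 56.9 and 64.3 CPM in WT and at 84.7, 77.5 and 91.2 CPM in KO 1, KO 2 and KO 3. KO 3 was the highest library, and WT 1 lay between the KO libraries. The difference did not pass the test over all 6 libraries (log2 fold change 0.28, SE 0.17, adjusted p = 0.272) or over the 4 (0.30, SE 0.24, adjusted p = 0.356). It was higher over the 4 without WT 1 (0.61, adjusted p = 0.0262) and near 0 without WT 2 (0.043, adjusted p = 0.850).

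Bax, the proapoptotic Bcl2 relative, was at 44.4, 72.3 and 68.2 CPM in WT and at 33.4, 56.3 and 30.2 CPM in KO 1, KO 2 and KO 3. KO 1 and KO 3 lay below every WT library and KO 2 above WT 1. Its log2 fold change was -0.65 (SE 0.31, adjusted p = 0.202) over all 6 libraries and -0.89 (SE 0.28, adjusted p = 0.0741) over the 4, and neither passed the test. Over the 4 libraries Bax did pass with edgeR's exact test (adjusted p = 0.0316) and without WT 1 (log2 fold change -1.20, adjusted p = 0.00441), whereas without WT 2 the value was -0.49 (adjusted p = 0.0951) and without KO 3 -0.80 (adjusted p = 0.290).

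Sesn2, a stress-responsive inhibitor of mTORC1, was at 30.3, 40.3 and 23.0 CPM in WT 1, WT 2 and WT 3 (31.2 ± 8.67, SD, n = 3) and at 10.04, 25.2 and 12.6 CPM in KO 1, KO 2 and KO 3 (15.9 ± 8.12). KO 1 and KO 3 lay below every WT library, and KO 2 lay above WT 3. Over all 6 libraries the log2 fold change of -0.99 (SE 0.41, 95% interval -1.98 to -0.003, adjusted p = 0.184) did not pass the test. Over WT 1, WT 2, KO 1 and KO 3, Sesn2 fell by 1.65 on the log2 scale (SE 0.26, 95% interval -2.31 to -1.003, adjusted p = 0.0343), with 11.3 CPM in KO and 35.3 CPM in WT. That call was lost without KO 1 (log2 fold change -1.49, adjusted p = 0.0814) and without KO 3 (-1.81, adjusted p = 0.0964), with folds of similar size.

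Rb1 and Nf1, the tumor suppressors of the RB and RAS pathways, varied little. Rb1 was at 55.1, 58.9 and 53.1 CPM in WT and at 52.5, 46.5 and 46.9 CPM in KO 1, KO 2 and KO 3. It was the only one of the 9 genes for which every KO library lay below every WT library, an order that 14.6% of the 16166 genes tested showed. Its log2 fold change was -0.21 in both comparisons (SE 0.12, adjusted p = 0.249 over all 6 libraries, and SE 0.17, adjusted p = 0.360 over the 4) and did not pass the test.

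Nf1, a target of the deletions in the injected cells, was at 149, 122 and 132 CPM in WT and at 171, 128 and 176 CPM in KO 1, KO 2 and KO 3. KO 1 and KO 3 were the highest libraries, and KO 2 lay between WT 2 and WT 3. The log2 fold change was 0.22 (SE 0.18, adjusted p = 0.368) over all 6 libraries and 0.34 (SE 0.21, adjusted p = 0.237) over the 4. When libraries were scaled to their total alone, a scaling under which the median of all genes shifted to -0.17 and -0.27, these values became 0.048 and 0.099.

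Taking the genes as a group, 0 of 9 passed edgeR's test over all 6 libraries at an adjusted p under 0.05, as did 0.0% of the 16166 genes tested in either direction (smallest adjusted p 0.184). At an unadjusted p under 0.05, 1 of the 9 was lower, namely Sesn2, beside 11.9% of all genes, and none was higher, beside 15.2%. The exact test of edgeR and limma-voom called 0 of the 9 as well, and DESeq2 called 0 of 8, since it gave no p for Cdkn2a. Among all genes DESeq2 called 431 lower and 775 higher, the exact test 39 lower and 66 higher, and limma-voom 0. The median log2 fold change of the 9 was -0.21 against -0.022 for all genes tested. Over WT 1, WT 2, KO 1 and KO 3, 2 of the 9 were lower, Trp53 and Sesn2, beside 13.9% of 16183 genes, and 0 were higher, beside 2.87%. With a change over 4-fold also required, 0 of the 9 were called, beside 6.23% of all genes lower and 0.451% in the other direction. By unadjusted p under 0.05, 4 of the 9 were lower (Trp53, Sesn2, Cdkn2a and Bax), beside 26.2% of all genes, and 0 higher, beside 19.9%. In those 4 libraries both KO values lay below both WT values for 5 genes (Trp53, Bax, Cdkn2a, Rb1 and Sesn2), an order shown by 41.6% of all genes, and above them for Nf1, an order shown by 39.5%. With so few libraries these orders are common, and the count of 5 is read against that share. When KO 2 alone was left out of the 6 libraries, Trp53 (log2 fold change -1.72, adjusted p = 0.00798), Sesn2 (-1.46, adjusted p = 0.0127), Cdkn2a (-4.94, adjusted p = 0.0152) and Bax (-0.95, adjusted p = 0.0222) were lower, 4 of 9 beside 28.3% of 16279 genes, and 0 were higher, beside 24.5%.

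**Figure D4:**
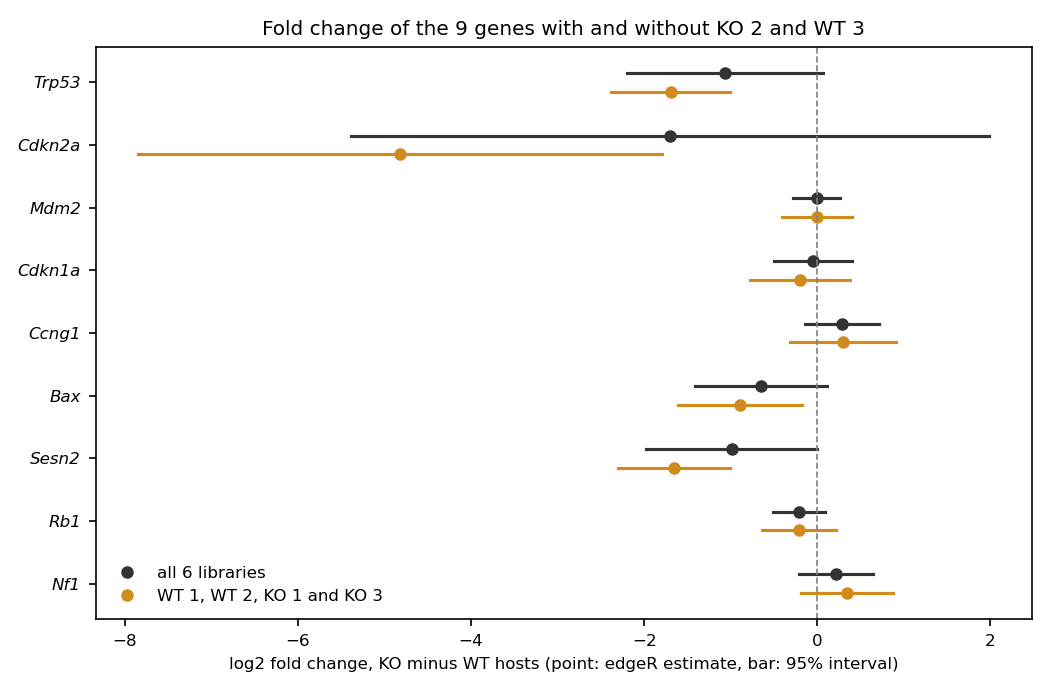
Log2 fold change of each gene, KO minus WT (x axis), with its 95% interval from edgeR, over all 6 libraries (black) and over WT 1, WT 2, KO 1 and KO 3 (orange). In the second comparison the intervals of Trp53 (-2.39 to -1.01), Sesn2 (-2.31 to -1.003), Cdkn2a (-7.85 to -1.80) and Bax (-1.60 to -0.17) lie below 0. Over all 6 libraries only that of Sesn2 does (-1.98 to -0.003). Those of Mdm2, Cdkn1a, Ccng1, Rb1 and Nf1 include 0 in both. The intervals are not adjusted for the number of genes tested, and Cdkn2a and Bax were not called by adjusted p.

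Without use of the group labels, the spread over libraries was widest for Cdkn2a, Trp53, Sesn2 and Bax. The highest library was 4.39 times the lowest for Trp53, 4.02 times for Sesn2 and 2.40 times for Bax, against a median of 2.15 over 15299 genes. Ccng1 (1.60 times), Nf1 (1.44 times), Cdkn1a (1.37 times), Rb1 (1.27 times) and Mdm2 (1.10 times) lay under that median, and Cdkn2a was above 99.5% of genes. The genes whose log2 CPM over the 6 libraries was most like that of Trp53 included Gm6548 and Recql4, a DNA helicase (Pearson r = 0.9997 each, Spearman rho = 1.0, n = 6 libraries). For Cdkn2a they were Hoxa10 (r = 0.9992), Zfp521 (0.9989) and the spindle checkpoint kinase gene Bub1 (0.9986). For Cdkn1a they were Rnf181 (r = 0.9601), Nsdhl (0.9573) and Coprs (0.9548). An r over 0.9 was reached by 4399 genes with Trp53, by 2619 with Cdkn2a and by 18 with Cdkn1a, and KO 1 and KO 3 stand apart from the other 4 libraries in the first 2 of these relations, which are given as descriptions only.

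The other genes of these pathways are described by lists written with earlier results of these data known. None of their genes passed the test over all 6 libraries. Of 31 other p53 target genes in the table, 20 had a negative and 11 a positive log2 fold change over all 6 libraries, with a median of -0.33. The lowest was Gdf15, a stress-induced cytokine gene, at 2.14, 4.03 and 1.78 CPM in WT and at 0.0, 2.80 and 0.0521 CPM in KO 1, KO 2 and KO 3. The highest was Fbxw7, which encodes a ubiquitin ligase subunit, at 118, 68.3 and 93.3 CPM in WT and at 257, 113 and 340 CPM in KO (log2 fold change 1.33, SE 0.43, adjusted p = 0.184). Over the 4 libraries 5 of the 31 were lower and 1 was higher, shares near those of all genes (13.9% and 2.87%). Named after their values were seen, the lower ones were Gdf15, Btg2 (log2 fold change -1.67), Pidd1 (-2.30), Trp53cor1 (-2.42) and Psrc1 (-1.26), and the higher one was Fbxw7 (1.67, adjusted p = 0.0416). Also chosen after their values were seen, the apoptosis genes Bbc3 (-0.73, adjusted p = 0.142) and Pmaip1 (-0.27, adjusted p = 0.522) did not pass. Nor did Sesn1, a relative of Sesn2 with the opposite sign (0.51, SE 0.21, adjusted p = 0.115), which was at 51.3, 37.9 and 47.7 CPM in WT and at 62.1, 55.9 and 65.9 CPM in KO.

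Of 13 p53 regulators and relatives, the kinase gene Chek1 had the lowest log2 fold change (-1.74 over all 6 libraries, SE 0.95, adjusted p = 0.232) and Usp7, the deubiquitinase of Mdm2 and p53, the highest (0.34, SE 0.18, adjusted p = 0.224). Over the 4 libraries 4 of the 13 were lower, beside 13.9% of all genes, and 0 higher, beside 2.87%. All 4 encode DNA damage kinases. Named after their values were seen, these were Chek1 (-3.63), Chek2 (-3.29), Atm (-1.78) and Atr (-1.23). Mdm4, the relative of Mdm2 and likewise chosen after its values were seen, was at 85.7, 104 and 104 CPM in WT and at 77.9, 103 and 60.3 CPM in KO, and did not pass (log2 fold change -0.47, adjusted p = 0.151).

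The RB pathway list had the lowest median of the pathway lists (-0.87 over all 6 libraries and -1.28 over the 4). E2f2, an activating E2F factor, was lowest over all 6 libraries (log2 fold change -1.93, SE 0.78, adjusted p = 0.184), with 14.6, 24.2 and 23.0 CPM in WT and 2.28, 12.3 and 1.82 CPM in KO 1, KO 2 and KO 3. Highest was Cdkn1c, the gene of the kinase inhibitor p57 (0.32, SE 0.43, adjusted p = 0.581). Over the 4 libraries 10 of 23 were lower, beside 13.9% of all genes, and 0 higher, beside 2.87%. Named after their values were seen, they were the kinases Cdk2, Cdk4 and Cdk6, the cyclins Ccnd1 and Ccnd3, the factors E2f2, E2f7 and E2f8, the RB relative Rbl1 and the inhibitor Cdkn2c, with log2 fold changes from -4.14 (E2f8) to -1.69 (Ccnd3). Rb1 and its relative Rbl2 (0.091, adjusted p = 0.695) were not among them. The 12 cycling cell genes summed above include none of these 10 and were also low in KO 1 and KO 3. How far the 10 follow the cycling cells was not tested.

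Among 14 negative regulators of the RAS pathway beside Nf1, Spry1 was lowest (log2 fold change -1.75 over all 6 libraries, SE 0.52, adjusted p = 0.184) and Rasal1, a RAS GTPase activating protein, highest (1.76, SE 0.42, adjusted p = 0.184). Over the 4 libraries Spry1 was lower (-2.53, adjusted p = 0.0343), and Rasal1 (2.06, adjusted p = 0.0419) was higher. Of 10 other glioma tumor suppressors, none passed in either comparison, beside 13.9% of all genes lower and 2.87% higher over the 4. Their lowest was the chromatin remodeler Atrx (-0.32 over all 6 libraries, SE 0.16, adjusted p = 0.212).

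**Figure D5:**
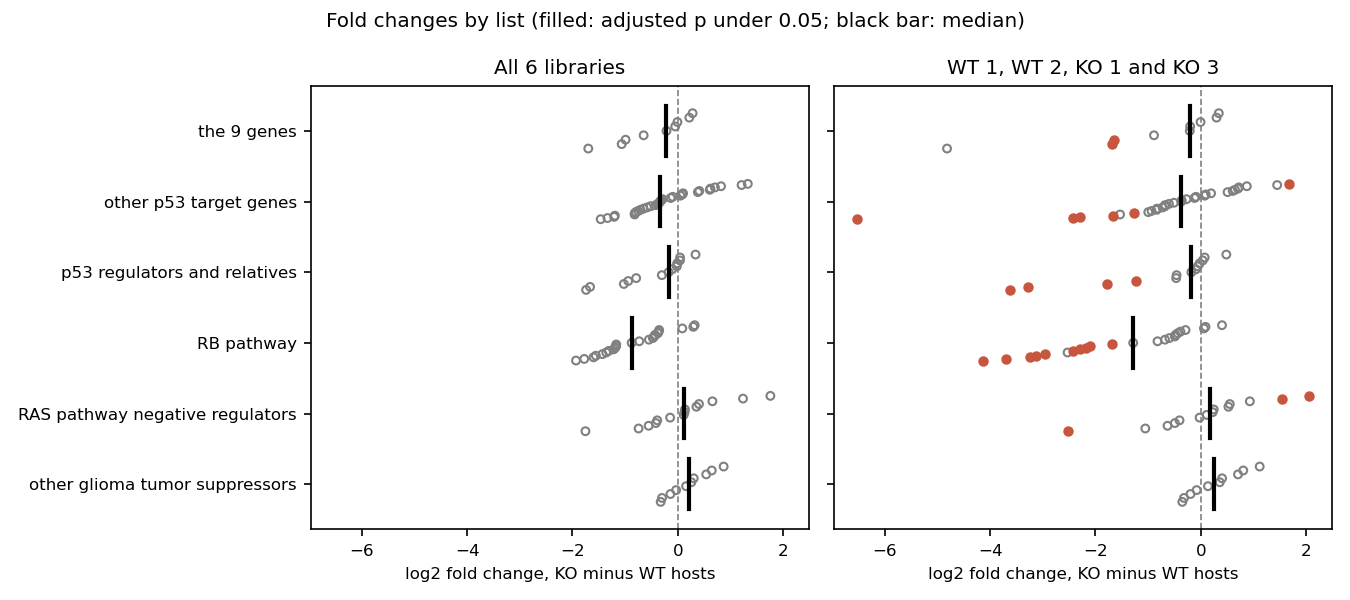
Log2 fold change, KO minus WT (x axis), of each gene of the 9 and of 5 pathway lists, over all 6 libraries (left) and over WT 1, WT 2, KO 1 and KO 3 (right). Filled points passed an adjusted p of 0.05 and black bars are medians. No point is filled on the left, and on the right 10 of 23 RB pathway genes are filled, beside 2 of the 9. Among all genes, 13.9% passed as lower and 2.87% as higher in the comparison on the right. The leftmost point on the right is Gdf15, whose estimate rests on 0 reads in KO 1.

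Genes next to or inside the loci were measured as well. At Cdkn2a (chr4:89274471-89294653, minus strand, GRCm38), Cdkn2b, the gene of p15Ink4b, lies 11646 bases away on the same strand. Cdkn2b was at 2.52, 4.81 and 3.70 CPM in WT and at 0.913, 2.49 and 0.364 CPM in KO 1, KO 2 and KO 3 (log2 fold change over the 4 libraries -2.53, SE 0.63, adjusted p = 0.0521). Mtap, a gene of methionine salvage 93390 bases away, was at 49.7, 74.3 and 70.6 CPM in WT and at 13.9, 47.6 and 12.7 CPM in KO, and was lower over the 4 libraries (-2.23, SE 0.26, adjusted p = 0.0343). For all 3 genes of the locus, both KO values of the 4 libraries lay below both WT values. This order is common, being shown by 41.6% of all genes and by 6 of the 9 neighboring genes, Cdkn2b and Mtap among these 6. It does not set the locus apart, and Cdkn2b rests on 16 reads in KO 1 and 7 in KO 3. Wrap53, 104 bases from Trp53 (chr11:69580359-69591873, plus strand) on the opposite strand, was at 13.99, 16.9 and 16.6 CPM in WT and at 12.2, 11.9 and 10.3 CPM in KO. Its change did not pass (-0.47 over the 4, SE 0.25, adjusted p = 0.195) and was smaller than that of Trp53, a difference that was not tested.

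Within Rb1 (chr14:73183673-73325822, minus strand), Lpar6 lies inside the gene on the opposite strand, and Rcbtb2 overlaps it from the opposite strand. Lpar6 was at 11.2, 20.3 and 16.8 CPM in WT and at 6.85, 10.99 and 5.47 CPM in KO, and did not pass (-1.37 over the 4, adjusted p = 0.0629). Rcbtb2 was lower over the 4 libraries (-1.19, SE 0.23, adjusted p = 0.0376). Within Nf1 (chr11:79339693-79581612, plus strand), Omg, the gene of an oligodendrocyte myelin glycoprotein, and Evi2a lie on the opposite strand. Omg was at 84.9, 50.1 and 61.7 CPM in WT and at 128, 75.7 and 144 CPM in KO (1.00 over the 4, SE 0.29, adjusted p = 0.0670), and Evi2a at 23.4, 18.1 and 15.8 CPM in WT and 33.0, 21.9 and 18.6 CPM in KO (0.30, adjusted p = 0.498). Because the use of strand in counting is not given in the sources used here, reads of Rb1 and Nf1 and of the genes that overlap them cannot be told apart where exons overlap. Next to Cdkn1a (chr17:29090976-29100727, plus strand), the splicing factor gene Srsf3, 47603 bases away, was lower over the 4 libraries (-1.04, SE 0.25, adjusted p = 0.0498), unlike Cdkn1a itself, and Cpm, 1523 bases from Mdm2 (chr10:117688875-117710758, minus strand), was not (0.080, adjusted p = 0.865). Of the remaining genes, Bax lies at chr7:45461697-45466898 on the minus strand, Ccng1 at chr11:40748552-40755311 on the minus strand and Sesn2 at chr4:132492032-132510501 on the minus strand.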

How the data were processed

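The authors aligned the reads and counted those that mapped uniquely. The labels name CASAVA 1.8.2, edgeR and mm10, whereas the methods name hg38 and another library kit. Deposited counts are whole reads per gene without normalization, and deposited FPKM were made by the authors from library size and gene length. The authors' fold changes, p-values and normalized signal were not used. Every gene of the table has counts in at least 4 libraries.

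The fit of the counts used edgeR 4.0.16 in R 4.3.3, with filterByExpr (minimum count 10, minimum total 15), TMM factors, the quasi-likelihood F test and p-values adjusted by Benjamini-Hochberg across the genes tested, and was tested on simulated data. All 9 genes passed the filter. A call is an adjusted p under 0.05. The SE is the size of a log2 fold change over the square root of F. CPM used TMM factors over 6 libraries. Intervals of single libraries are exact at 95% and, like floors, cover counting error only. Each library is 1 tumor of a separate host, and p-values measure the spread between these tumors. Alternatives used limma 3.58.1, DESeq2 1.42.0, the exact test, other scalings and filters, single libraries left out and the replicate number as a block. Correlations used log2 CPM (prior count 2) of genes with a mean of at least 1 CPM. Named genes are the 9, Esm1, the lowest and highest of each pathway list over 6 libraries, the neighboring genes and the 3 genes most like Trp53, Cdkn1a and Cdkn2a, with others marked in the text. Some genes that this rule names are not reported here. The members and lists were chosen with earlier results of these data known. Tigar, Cop1 and Evi2b were not analysed here. Positions and exons came from GENCODE vM21 (GRCm38).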

Additional observations from a re-analysis of the deposited data

How the results depend on the processing

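Over all 6 libraries, 0 of the 9 genes were called under every alternative run (RLE, upper quartile and library size scaling, the latter chosen after seeing the data, no filter, a mean count of 10, DESeq2 with no p for Cdkn2a, the exact test, limma-voom, a change over 4-fold) except without single replicates, where the count ranged from 0 to 4, the 4 being without KO 2. Deviations of same-numbered libraries correlated for numbers 1 and 2 and not for 3 (r = 0.525, 0.576 and -0.191), and 4 of 6 libraries correlated best with their own number, so the numbers were not taken as pairs. With the replicate number as a block 0 of the 9 were called, with adjusted p = 0.0652 for Sesn2, 0.0745 for Trp53 and 0.0899 for Bax. Over WT 1, WT 2, KO 1 and KO 3, the 2 calls became 3 with upper quartile scaling, DESeq2 and limma-voom, 4 with library size scaling and the exact test and 0 with a change over 4-fold. Leaving out single replicates gave 1 to 5, 5 without WT 1 (beside 4508 lower and 4240 higher of 16388 genes) and 1, Cdkn2a, without KO 3 (beside 252 lower and 0 higher of 16413), with the lone remaining library assumed to vary like the others. Among all genes these 4 libraries gave 2244 lower and 464 higher calls, against 3160 and 2679 with DESeq2 and 3577 and 2592 with the exact test. The sign of Mdm2 turned to 0.033 (RLE and DESeq2) and 0.013 (no filter) over all 6 libraries and to 0.031 (RLE and DESeq2) over the 4, while RLE moved the median of all genes from -0.022 to 0.016 over all 6. Without single replicates Mdm2 ranged from -0.046 to 0.043 and from -0.036 to 0.039, and Cdkn1a over all 6 from -0.12 to 0.070. Why the other values moved was not tested. Cdkn2a rested on 3 reads in KO 3 and 86 in KO 1, while each of the other 8 genes had at least 176 reads in each library.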

Other observations

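Ratios of per-length levels within a library do not depend on the scaling of libraries. Cdkn2a over Trp53 (both products of Cdkn2a counted together) was 1.76, 1.91 and 2.18 in WT 1, WT 2 and WT 3, 0.365 in KO 1 and 2.01 in KO 2, and in KO 3 Cdkn2a was at its floor. Mdm2 over Trp53 was 0.504, 0.362 and 0.408 in the WT libraries and 1.22, 0.516 and 1.54 in KO 1, KO 2 and KO 3, so Mdm2 exceeded Trp53 per length in KO 1 and KO 3 and in no other library. Cdkn1a over Trp53 was 0.284, 0.222 and 0.197 in WT and 0.544, 0.299 and 0.897 in KO. Bax over Trp53 was 1.40, 1.57 and 1.61 in WT and 2.43, 1.65 and 2.88 in KO. The ratios share Trp53 as their denominator and so hold its lower level in KO 1 and KO 3. These ratios were chosen after the levels were seen, and no test was run on them.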
